A study of Mus musculus with 30 samples.

Results

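Basophils are rare granulocytes, and in 4 droplet single-cell libraries of mouse spleen they were taken as the cells carrying basophil transcripts without B or T cell receptor chains. Barcodes counted as cells from 200 genes upward, with mitochondrial genes giving no more than 20% of the UMIs (unique molecular identifiers, each standing for 1 captured RNA molecule). A cell was called a basophil where Mcpt8, Prss34, Cd200r3 and Ms4a2 together had at least 3 UMIs, Cd79a and Cd79b together at most 2, and Cd3e, Cd3d and Cd3g together at most 1. This rule found 54 basophils among 52510 kept cells, of 53644 barcodes. The 2 Smc3-cKO libraries held 9 of 8596 and 17 of 14020 kept cells, and the 2 Smc3-WT libraries held 17 of 15639 and 11 of 14255. Pairs of values for a genotype are given as replicate 1 and then replicate 2.

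The series examines cohesin and PU.1 in conventional dendritic cells, and the 4 libraries hold splenocytes after removal of red blood cells from Smc3-cKO and from Smc3-WT mice, 2 libraries each. Smc3 codes for part of cohesin, a ring-shaped complex that holds chromatin in loops. The labels give the 2 genotypes only by these names, so the promoter driving deletion, the cells it acts in, and the strain are not given in the sources used here, nor is it stated whether basophils carry the deletion. An age of 6 to 8 weeks is given for the mice used for sorted dendritic cells, and none is given separately for the splenocytes. No treatment is named for either genotype. Nothing in the labels ties each library to its own mouse, so spread between them may be technical.

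Basophils arise in the bone marrow under the transcription factor GATA2, with IL-3 as their main growth factor, and circulate to tissues that include the spleen. They carry the high-affinity IgE receptor, whose alpha chain (Fcer1a) binds IgE, whose beta chain (Ms4a2) amplifies the signal and whose gamma chain (Fcer1g) is shared with other Fc receptors. Cross-linking of bound IgE releases histamine and proteases from granules and leads to leukotriene and IL-4 production. Mouse basophils are told from mast cells by the proteases Mcpt8 and Prss34 and by low surface KIT.

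Since GATA2 is the factor most closely tied to this lineage, promoters were read for the GATA letters AGATAA or TGATAA on either strand. Shown are the 4 genes of the rule, with and without a match, and Cpa3, which codes for carboxypeptidase A3 of basophil and mast cell granules and is among the other markers with a match. Each runs 5′ to 3′ along the gene, from 250 bases before its start to 50 after it, from RefSeq on GRCm38.p6, with the matches in capitals (the reverse complements read TTATCT and TTATCA).
Ms4a2, chr19:11623670-11623969, minus strand: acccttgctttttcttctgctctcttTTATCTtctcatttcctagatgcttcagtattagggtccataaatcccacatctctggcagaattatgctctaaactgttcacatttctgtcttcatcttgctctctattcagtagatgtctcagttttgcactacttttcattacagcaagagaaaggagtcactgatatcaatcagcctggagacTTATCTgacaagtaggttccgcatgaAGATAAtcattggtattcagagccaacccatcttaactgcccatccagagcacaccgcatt
Cd200r3, chr16:44943428-44943727, plus strand: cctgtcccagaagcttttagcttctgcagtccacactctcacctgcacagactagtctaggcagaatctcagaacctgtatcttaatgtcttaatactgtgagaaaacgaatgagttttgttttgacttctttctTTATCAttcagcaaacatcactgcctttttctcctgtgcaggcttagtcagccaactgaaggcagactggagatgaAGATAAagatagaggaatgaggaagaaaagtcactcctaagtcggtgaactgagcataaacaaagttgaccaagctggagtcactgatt
Cpa3, chr3:20242132-20242431, minus strand: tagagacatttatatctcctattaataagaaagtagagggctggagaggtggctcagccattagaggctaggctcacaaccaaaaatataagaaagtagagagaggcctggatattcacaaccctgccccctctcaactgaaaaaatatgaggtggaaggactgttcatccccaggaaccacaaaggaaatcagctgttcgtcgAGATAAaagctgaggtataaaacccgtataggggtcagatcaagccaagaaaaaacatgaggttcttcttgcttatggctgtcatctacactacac
Prss34, chr17:25298144-25298443, plus strand: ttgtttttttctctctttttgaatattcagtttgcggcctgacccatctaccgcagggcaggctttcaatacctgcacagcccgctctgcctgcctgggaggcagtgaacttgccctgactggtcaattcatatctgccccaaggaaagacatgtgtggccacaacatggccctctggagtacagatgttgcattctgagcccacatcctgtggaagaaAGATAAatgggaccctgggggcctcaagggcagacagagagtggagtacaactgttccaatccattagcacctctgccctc
Mcpt8, chr14:56085148-56085447, minus strand: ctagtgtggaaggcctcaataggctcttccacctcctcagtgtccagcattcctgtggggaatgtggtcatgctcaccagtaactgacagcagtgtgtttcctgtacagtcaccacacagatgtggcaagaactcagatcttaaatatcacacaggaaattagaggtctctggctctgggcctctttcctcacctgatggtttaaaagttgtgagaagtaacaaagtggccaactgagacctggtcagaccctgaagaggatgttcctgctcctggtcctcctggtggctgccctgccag
Ms4a2 held 3 matches, beginning 224, 37 and 11 bases before the start. Cd200r3 held 2, at 115 and 39 bases before it, Cpa3 1 at 46 bases and Prss34 1 at 31 bases. The letters occurred in 18.6% of 32851 mouse promoters of this length and in 5 of the 16 promoters of the rule genes and the other basophil markers, taking the first listed promoter of each gene. The fifth was Fcer1a. Il4, without a match in its first listed promoter, held 1 in its second, at position 15 from that start. The 32851 were all listed promoters, while the 16 were 1 per gene. The promoters of Mcpt8 and Gata2 held no match in this window. The PU.1 letters GAGGAA occurred in 28.3% of all promoters and 7 of the 16, the RUNX letters TGTGGT in 16.8% and 4, and the STAT letters TTCNNNGAA in 8.30% and 1. A match is a run of letters and not a measured binding site.

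The 4 genes of the rule, given here as description because they chose the members, did not contribute evenly. Cd200r3, an activating receptor of the CD200 receptor family, was detected in 52 of 54 members with 291 UMIs, and Ms4a2 in 48 with 169 UMIs. Mcpt8, the mouse basophil serine protease, was detected in 21 members with 177 UMIs. Prss34, a tryptase-like protease, was detected in 5 members with 123 UMIs. Of all UMIs in kept cells, the members held 291 of 702 for Cd200r3, 169 of 237 for Ms4a2, 177 of 347 for Mcpt8 and 123 of 350 for Prss34. Cd200r3 was at 998 and 2029 CPM in the Smc3-cKO libraries, against 2033 and 3561 CPM in the Smc3-WT libraries. Ms4a2 was at 1416 and 830.2 CPM in the Smc3-cKO libraries, against 938 and 1564 CPM in the Smc3-WT libraries. Mcpt8 was at 2901 and 369 CPM in the Smc3-cKO libraries, against 652 and 478 CPM in the Smc3-WT libraries, and Prss34 at 1856 and 69.2 CPM in the Smc3-cKO libraries, against 1042 and 0 CPM in the Smc3-WT libraries. Both proteases were high where a few members carried them: 2 members held 116 of the 123 Prss34 UMIs and 141 of the 177 Mcpt8 UMIs.

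The sum of the rule genes had a median of 8 UMIs per member and reached 241 in 1 member and 65 in the next. All 4 genes were detected in 5 members, 3 in 14, 2 in 29 and 1 in 6, and in 5 of those 6 it was Cd200r3. Just inside the limit, at a sum of 3, were 6 cells, of which 50% carried at least 2 of 12 other basophil markers. At 4 and more were 48 cells, of which 100% did. Just outside, at a sum of 2, were 14 cells with 50%, and at a sum of 1 were 95 cells with 6.32%. A further 13 cells reached a sum of 3 but were set aside for B or T cell chains, and 2 for few genes or mitochondrial UMIs. The 13 held 153 Mcpt8 and 209 Prss34 UMIs, nearly all in 2 barcodes (120 and 140 UMIs in a Smc3-WT replicate 1 barcode, 22 and 68 in a Smc3-cKO replicate 1 barcode), and median depth was 2250.5 UMIs in the members and 6181 UMIs in these 13.

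**Figure D1:**
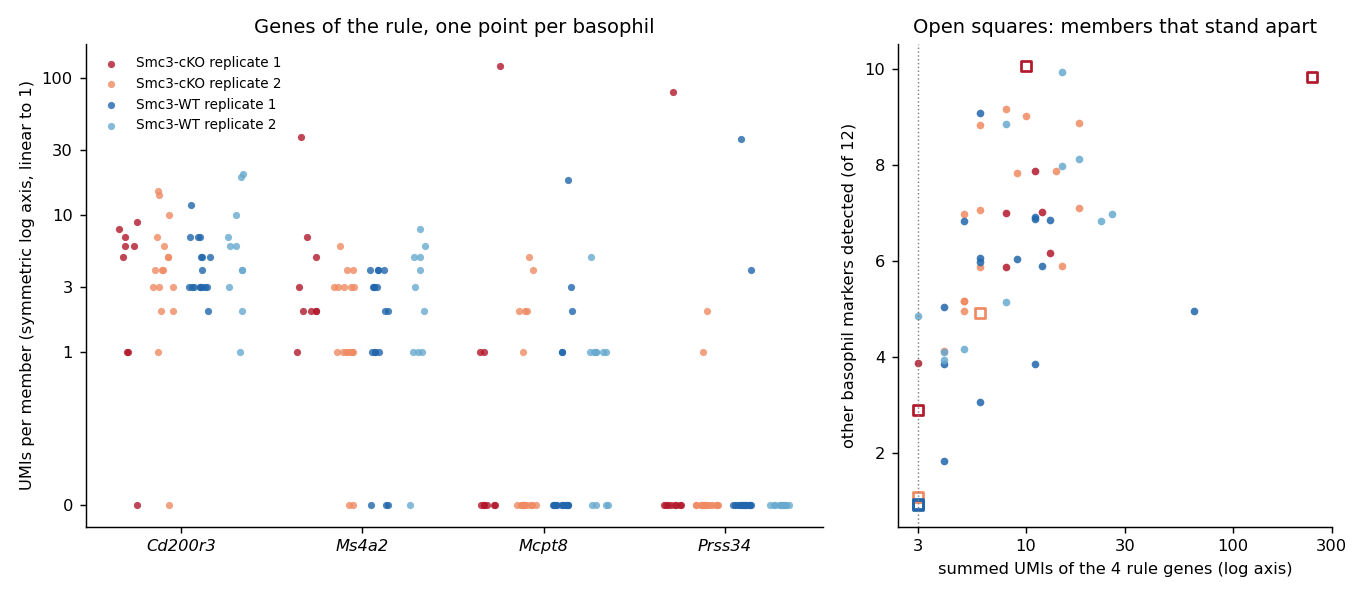
UMIs per basophil for each rule gene (left, 1 point per member, coloured by library, symmetric log axis) and the number of 12 other basophil markers detected against the summed UMIs of the rule genes (right, log axis, dotted line at the limit of 3). Cd200r3 and Ms4a2 are spread over nearly all members, Prss34 is at 0 in 49 of 54, and open squares mark the 7 members that stand apart.

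Of the 54 members, 7 stood apart and are named before the results that rest on them. In Smc3-cKO replicate 1, 1 member of 17677 UMIs held 41.0% of that library's member UMIs, with 123 Mcpt8, 80 Prss34, 47 Cpa3, 32 Gata2, 22 Top2a and 11 Mki67 UMIs, the last 2 being genes of dividing cells. A further 2 members of that library, with 7545 and 7089 UMIs, carried 583 and 639 UMIs of S100a8, the calprotectin subunit abundant in neutrophils. In Smc3-cKO replicate 2, a member of 8108 UMIs had 3 Cd200r3 UMIs and no other rule gene, with 24 Cd209a, 8 Flt3, 4 Siglech and 56 Cd74 UMIs, genes of dendritic cells. Another member of that library, with 4167 UMIs, held all 18 Cma1 and 20 Gzmb UMIs and 9 of the 11 Kit UMIs, genes of mast cells and, for Gzmb, of other granule-bearing cells. In Smc3-WT replicate 1, 2 members passed on 3 Cd200r3 UMIs with 1 other marker each. Results were recomputed with these 7 left out (over 5000 UMIs, at least 5 UMIs of mast cell markers, or fewer than 2 other markers), which left 6 and 15 members in the Smc3-cKO libraries, against 15 and 11 in the Smc3-WT libraries. Of the genes named here with a UMI in a library, the level moved by over 1.5 times for 92 of 118 in Smc3-cKO replicate 1 (63 upward) and 17 of 114 in Smc3-cKO replicate 2, against 7 of 110 in Smc3-WT replicate 1 and 0 of 103 in Smc3-WT replicate 2.

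The label of the cells was checked on markers that the rule did not read. The 12 other basophil markers were Gata2, Fcer1a, Cpa3, Il4, Hdc, Cyp11a1, Ifitm1, Csf1, Itga2b, Cd63, Akr1c18 and Osbpl8. Of these 12, 51 of 54 members carried at least 2, with a median of 6 per member. Of kept cells at a rule-gene sum of 0 and within the B and T limits, 3.64% did (712 of 19578). Hdc was also detected in 142 and Cd63 in 83 of 270 neutrophils. The S100a8-rich member of 7545 UMIs passed through Hdc, Cd63 and Osbpl8 alone. Of the 12, 11 were detected in some member. The exception was Akr1c18, listed at 0 UMIs in all 4 libraries. Over all members 0 UMIs allow a level of up to 20.3 CPM (3 of the 147850 UMIs, CPM being counts scaled to a common library total, counting error only). The summed level of the 12 was 5732 and 7656 CPM in the Smc3-cKO libraries, against 3936 and 8990.2 CPM in the Smc3-WT libraries. In the compared classes it was 913 to 1124 CPM in neutrophils, 359 to 419 CPM in classical monocytes and 430.4 to 561 CPM in NK cells, so every basophil library was above every other.

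Markers of other cell types were counted in the same members. Of 11 mast cell markers, 8 were at 0 UMIs in all members, among them the chymases Mcpt1, Mcpt2 and Mcpt4 and the tryptase Tpsb2. Tpsab1 was at 0 as well, but is listed as a transcribed pseudogene in GRCm38.p6. The mast cell list summed to 46.4 and 715 CPM in the Smc3-cKO libraries, against 104 and 217 CPM in the Smc3-WT libraries, and without the 7 members to 92.7 and 129 CPM in the Smc3-cKO libraries, against 90.7 and 217 CPM in the Smc3-WT libraries. All 11 Kit UMIs lay in 3 of those 7 members. What remained was Slc6a4, the serotonin transporter, with 13 UMIs in 10 of all members. Of 10 eosinophil markers, 7 were at 0, including Epx, Prg2 and Il5ra. Alox15 accounted for 19 of the 30 eosinophil-list UMIs. The neutrophil list summed to 59801 and 876 CPM in the Smc3-cKO libraries, against 547 and 738 CPM in the Smc3-WT libraries, and without the 7 members to 1206 and 1190.1 CPM in the Smc3-cKO libraries, against 544 and 738 CPM in the Smc3-WT libraries. Cxcr2, which the members carry widely, accounts for 68 UMIs of the list in the members then left. The B cell list summed to 278 and 438 CPM in the Smc3-cKO libraries, against 2919 and 434 CPM in the Smc3-WT libraries and the erythroid list to 1323 and 92.2 CPM in the Smc3-cKO libraries, against 5004 and 174 CPM in the Smc3-WT libraries. Smc3-WT replicate 1 was the highest in both. The part of this RNA in the results below was not tested.

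**Figure D2:**
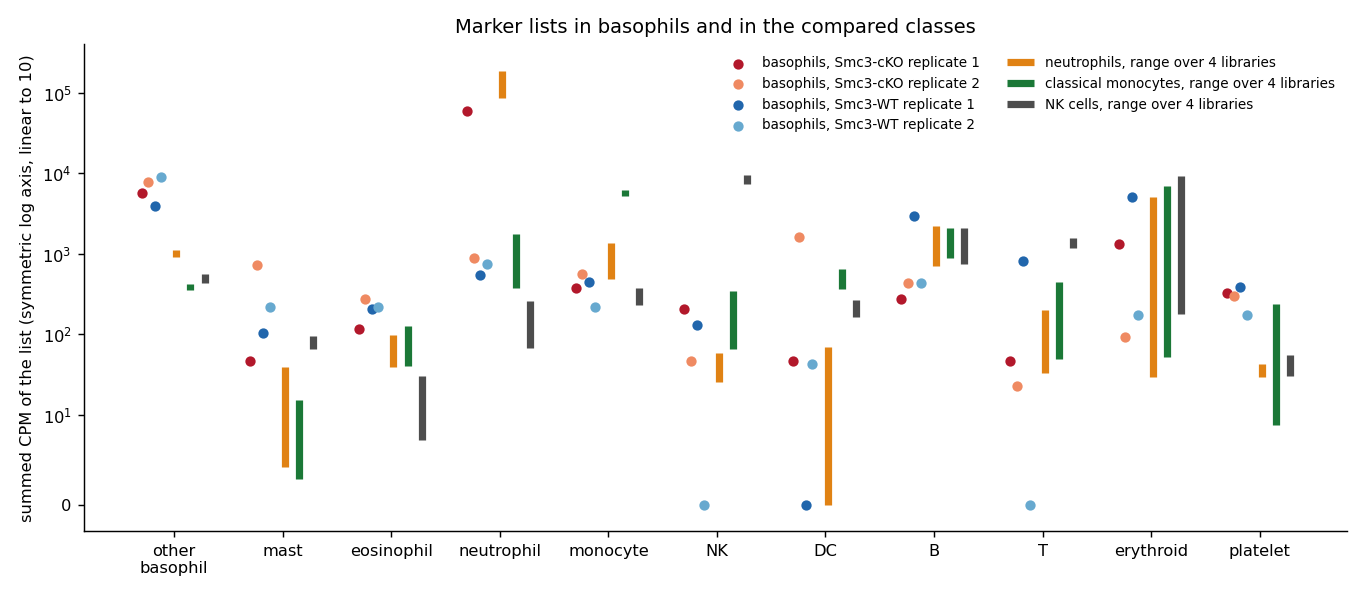
Summed CPM of each marker list in the basophils of each library (points) and its range over the 4 libraries in neutrophils, classical monocytes and NK cells (bars), on a symmetric log axis. The other basophil markers lie at 3936 to 8990 CPM in basophils, above all compared classes, and the neutrophil list is high only in Smc3-cKO replicate 1, at 59801 CPM.

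Basophils were tested against 3 classes from the same libraries: 270 neutrophils, the nearest granulocytes; 649 classical monocytes; and 849 NK cells, lymphocytes that share some surface receptors with basophils. The UMIs of a class were added up within each library, and these sums were compared with edgeR's quasi-likelihood test with the library as a block, p-values adjusted by Benjamini-Hochberg over all genes tested. Smc3-cKO replicate 1 fell below 10 members and was left out of these tests, so 3 libraries entered. All log2 ratios are basophils over the other class, with a standard error worked back from the fitted ratio and its test statistic. Each difference named as higher or lower had that direction in 3 of 3 libraries unless another number is given. Against neutrophils, 1599 genes were tested, and 205 (12.8%) were higher and 255 (15.9%) lower in basophils. Against classical monocytes, 3792 were tested, and 311 (8.20%) were higher and 496 (13.1%) lower. Against NK cells, 5372 were tested, and 376 (7.00%) were higher and 371 (6.91%) lower. The median log2 ratio over all genes tested was -0.05, -0.25 and -0.23 in that order. Counts of calls in the gene lists below are to be set beside these shares and medians of all genes. The 3 comparisons share the basophil sums and are not independent of each other. The filter on low counts kept a gene near 0 in a class only where it was high in the other. Such a gene could be called in that direction only, so counts and medians of gene lists partly reflect the filter. Counting was limited to 23025 to 43364 member UMIs per library. With 4-fold changes set in simulated counts, 65% were recovered against neutrophils, 49% against classical monocytes and 41% against NK cells. The simulation used a fixed dispersion not estimated from these data, no library effect and a mean profile pooled over both classes. Its shares therefore need not hold for the real counts.

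The genes that led over all 3 classes were Gata2, the adhesion molecule gene Cdh1 and Cpa3. Gata2 had 975 and 1314 CPM in the Smc3-cKO libraries, against 235 and 1564 CPM in the Smc3-WT libraries, in 41 of 54 members. It was the lowest in Smc3-WT replicate 1, and 32 of the Smc3-cKO replicate 1 UMIs came from its largest member. In the compared classes its mean was 0 CPM in neutrophils, 1.11 CPM in classical monocytes and 0.301 CPM in NK cells. It was at least 177-fold higher than in neutrophils (adjusted p = 1.2e-11) and higher than in classical monocytes (1648-fold, counting interval 289 to 65707, adjusted p = 1.3e-07). Cdh1, which codes for E-cadherin, had 511 and 969 CPM in the Smc3-cKO libraries, against 834 and 955 CPM in the Smc3-WT libraries, in 43 members. Its level was at least 167-fold higher than in neutrophils (adjusted p = 1.1e-11) and higher than in NK cells (892-fold, counting interval 240.3 to 7471, adjusted p = 9.3e-19). Cpa3 had 1299.5 and 577 CPM in the Smc3-cKO libraries, against 652 and 391 CPM in the Smc3-WT libraries, in 26 members, and was at 0 UMIs in the 3 other classes. Cpa3 was at least 103-fold higher than in neutrophils (adjusted p = 1.0e-09), at least 318-fold higher than in classical monocytes (adjusted p = 2.8e-06) and at least 365-fold higher than in NK cells (adjusted p = 7.5e-15).

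Cyp11a1, the enzyme that opens steroid synthesis from cholesterol, had 418 and 692 CPM in the Smc3-cKO libraries, against 313 and 695 CPM in the Smc3-WT libraries, in 34 members. In the compared classes its mean was 0 CPM in neutrophils, 0.765 CPM in classical monocytes and 0 CPM in NK cells. It was at least 101-fold higher than in neutrophils (adjusted p = 1.2e-09) and at least 359-fold higher than in NK cells (adjusted p = 9.4e-15). Several transporters stood beside it. Slc18a2, the vesicular monoamine transporter that loads histamine into granules, had 186 and 623 CPM in the Smc3-cKO libraries, against 339 and 521 CPM in the Smc3-WT libraries. Slc18a2 was higher than in neutrophils (log2 ratio 5.66 ± 0.67, adjusted p = 2.8e-08) and higher than in classical monocytes (log2 ratio 6.39 ± 0.63, adjusted p = 1.1e-05). Slc24a3, a sodium, potassium and calcium exchanger, had 859 and 1407 CPM in the Smc3-cKO libraries, against 1720.2 and 912 CPM in the Smc3-WT libraries, and Slc7a8, an amino acid transporter, 255 and 715 CPM in the Smc3-cKO libraries, against 521 and 434 CPM in the Smc3-WT libraries. Slc26a3, an anion exchanger, had 23.2 and 254 CPM in the Smc3-cKO libraries, against 182 and 261 CPM in the Smc3-WT libraries, with 0 UMIs in the compared classes. Prkg1, a cGMP-dependent protein kinase, had 302 and 969 CPM in the Smc3-cKO libraries, against 287 and 651 CPM in the Smc3-WT libraries, in 24 members. Samd13 and B630019A10Rik completed the higher genes by the rule, with 232 ± 105 CPM and 265 ± 155 CPM (SD, n = 4).

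**Figure D3:**
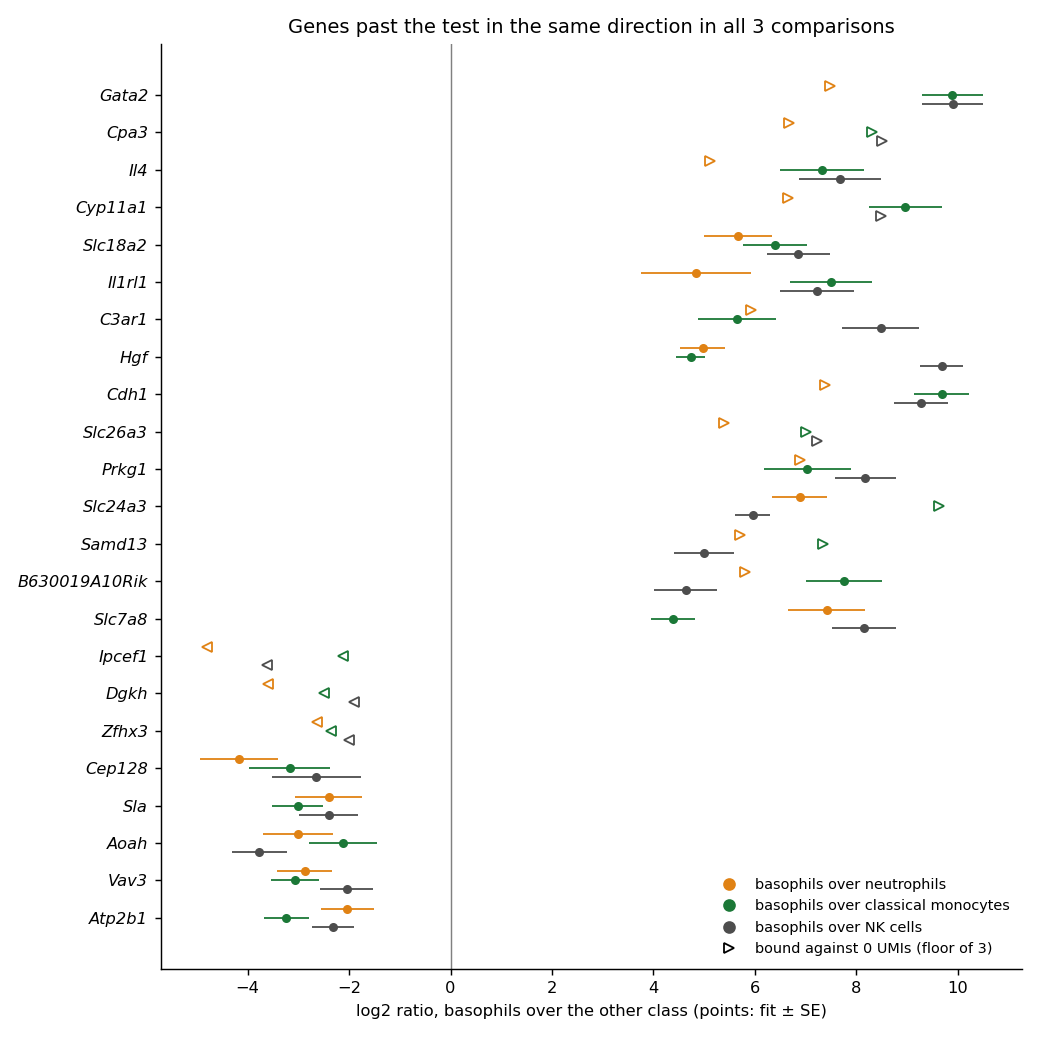
Log2 ratio of basophils over neutrophils, classical monocytes and NK cells for the 15 higher and 8 lower genes chosen by a fixed rule (points: fit with SE; open triangles: bound where a class had 0 UMIs). Where both classes had UMIs, the higher genes have fitted log2 ratios of 4.39 to 9.90, and the lower genes lie below 0 in all 3 comparisons.

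The genes lowest in basophils by the same rule were Ipcef1, Dgkh, Zfhx3, Cep128, Sla, Aoah, Vav3 and Atp2b1. Ipcef1 had 0 UMIs in the 3 libraries tested, and was at least 27.7-fold lower than in neutrophils (adjusted p = 1.2e-08), at least 4.35-fold lower than in classical monocytes (adjusted p = 0.00462) and at least 12.4-fold lower than in NK cells (adjusted p = 1.4e-07). Its 6 UMIs were all in Smc3-cKO replicate 1. With that library included, the log2 ratio against classical monocytes was -1.68 (adjusted p = 0.17). Other lower calls were lost with all 4 libraries as well. Against classical monocytes these were Cep128 (log2 ratio -1.15, adjusted p = 0.251) and Aoah (log2 ratio -1.48, adjusted p = 0.0556). Against NK cells they were Dgkh (log2 ratio -1.65, adjusted p = 0.152) and Cep128 (log2 ratio -0.98, adjusted p = 0.308). Vav3, a guanine nucleotide exchange factor, had 162 and 92.2 CPM in the Smc3-cKO libraries, against 104 and 0 CPM in the Smc3-WT libraries, and was lower than in neutrophils (log2 ratio -2.88 ± 0.55, adjusted p = 7.7e-05) and lower than in classical monocytes (log2 ratio -3.07 ± 0.48, adjusted p = 3.8e-04). Atp2b1, a plasma membrane calcium pump, had 23.2 and 115 CPM in the Smc3-cKO libraries, against 235 and 0 CPM in the Smc3-WT libraries, and was lower than in classical monocytes (log2 ratio -3.24 ± 0.44, adjusted p = 1.4e-04) and lower than in NK cells (log2 ratio -2.32 ± 0.42, adjusted p = 3.1e-05). Aoah, which deacylates bacterial lipopolysaccharide, had 116 and 46.1 CPM in the Smc3-cKO libraries, against 52.1 and 0 CPM in the Smc3-WT libraries, and was lower than in NK cells (log2 ratio -3.77 ± 0.54, adjusted p = 3.1e-07). Adjusted p passed 0.05 for some of these calls with 1 library fewer. Leaving out Smc3-cKO replicate 2, Dgkh was at 0.0508 and Cep128 was at 0.115 against NK cells, and Aoah was at 0.104 against classical monocytes, and Atp2b1 was at 0.145 against neutrophils. With Smc3-WT replicate 1 left out, Dgkh was at 0.103, Zfhx3 was at 0.0644 and Cep128 was at 0.258 against NK cells, and Cep128 was at 0.137 and Aoah was at 0.131 against classical monocytes. Without Smc3-WT replicate 2, Dgkh was at 0.0625, Zfhx3 was at 0.0656, Cep128 was at 0.154, Sla was at 0.0669 and Vav3 was at 0.0862 against NK cells, and Aoah was at 0.135 against classical monocytes. With DESeq2, Cep128 was at 0.0637 and Aoah was at 0.128 against classical monocytes, and Cep128 was at 0.174 against NK cells, and Sla was at 0.0577 against neutrophils in adjusted p.

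By level, the most abundant transcripts outside the genes set aside were the actin-binding peptide gene Tmsb4x, with 13094 ± 8438 CPM, and the nuclear RNA Malat1, with 10095 ± 5126 CPM (SD, n = 4 libraries). Arhgap15 had 5131 ± 1587 CPM, Actb 4890.3 ± 2410.1 CPM, Runx1 3122 ± 1184 CPM and the chemokine gene Ccl6 2563 ± 1985 CPM. The neutrophil granule gene Ngp reached the first 20 only through Smc3-cKO replicate 1, at 8656 CPM from 2 members, and had 0 UMIs in the other libraries. Syne1, a nuclear envelope protein gene, had 1787 and 1499 CPM in the Smc3-cKO libraries, against 1564 and 1868 CPM in the Smc3-WT libraries, even across libraries. It was higher than in classical monocytes (log2 ratio 5.66 ± 0.39, adjusted p = 3.6e-07), higher than in NK cells (log2 ratio 3.43 ± 0.27, adjusted p = 2.8e-14) and not past the test against neutrophils (log2 ratio -0.36 ± 0.36, adjusted p = 0.537). Pde4d, a cAMP phosphodiesterase, had 1555 and 1660.4 CPM in the Smc3-cKO libraries, against 1929 and 1173 CPM in the Smc3-WT libraries. Pde4d was higher than in classical monocytes (log2 ratio 4.21 ± 0.27, adjusted p = 2.0e-07), higher than in NK cells (log2 ratio 4.55 ± 0.30, adjusted p = 6.0e-17) and not past the test against neutrophils (log2 ratio 0.23 ± 0.39, adjusted p = 0.732). For both genes neutrophils were close to basophils in level, at 1889 and 1257 CPM.

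Transcription factors were led by Gata2, Runx1 and Ikzf2. Against neutrophils, 9 of the 36 genes were tested, 3 higher and 1 lower (3 and 1 with DESeq2), with a median log2 ratio of 0.13. Against classical monocytes, 19 of the 36 genes were tested, 5 higher and 2 lower (4 and 1 with DESeq2), with a median log2 ratio of 0.11. Against NK cells, 21 of the 36 genes were tested, 7 higher and 4 lower (7 and 1 with DESeq2), with a median log2 ratio of 0.67. Against neutrophils those higher were Ikzf2, Gata2 and Runx1, and the 1 lower was Cebpd. Against classical monocytes those higher were Ikzf2, Gata2, Cebpa, Meis1 and Runx1, and those lower were Cebpb and Irf8. Against NK cells those higher were Ikzf2, Spi1, Lmo4, Tal1, Gata2, Meis1 and Runx1, and those lower were Gata3, Runx3, Ikzf1 and Id2. Runx1, which acts in most blood lineages, was detected in all 54 members, with 2297 and 4519.9 CPM in the Smc3-cKO libraries, against 3675 and 1998 CPM in the Smc3-WT libraries. It was higher than in neutrophils (log2 ratio 2.34 ± 0.40, adjusted p = 1.4e-05), higher than in classical monocytes (log2 ratio 1.81 ± 0.26, adjusted p = 2.1e-04) and higher than in NK cells (log2 ratio 1.55 ± 0.24, adjusted p = 1.6e-06). Ikzf2, which codes for Helios, had 418 and 1522 CPM in the Smc3-cKO libraries, against 1095 and 1173 CPM in the Smc3-WT libraries, and was higher than in neutrophils (log2 ratio 5.73 ± 0.53, adjusted p = 1.3e-10), higher than in classical monocytes (log2 ratio 5.91 ± 0.42, adjusted p = 4.6e-07) and higher than in NK cells (log2 ratio 2.04 ± 0.27, adjusted p = 8.4e-08). Tal1, a partner of GATA factors, had 92.8 and 208 CPM in the Smc3-cKO libraries, against 104 and 43.4 CPM in the Smc3-WT libraries, in 16 members, and was higher than in NK cells (260.1-fold, counting interval 39.6 to 11000.0, adjusted p = 6.5e-09). Cebpa, needed early in granulocyte development, had 46.4 and 254 CPM in the Smc3-cKO libraries, against 26.1 and 174 CPM in the Smc3-WT libraries, and was higher than in classical monocytes (log2 ratio 2.07 ± 0.60, adjusted p = 0.0233). Meis1 had 116 and 299.8 CPM in the Smc3-cKO libraries, against 130.3 and 86.9 CPM in the Smc3-WT libraries, and was higher than in classical monocytes (log2 ratio 2.09 ± 0.54, adjusted p = 0.0134) and higher than in NK cells (log2 ratio 2.80 ± 0.64, adjusted p = 0.0011). Spi1, which codes for PU.1, had 255 and 208 CPM in the Smc3-cKO libraries, against 287 and 391 CPM in the Smc3-WT libraries. Spi1 was higher than in NK cells (log2 ratio 3.83 ± 0.62, adjusted p = 4.3e-06), not past the test against neutrophils (log2 ratio -0.92 ± 0.44, adjusted p = 0.12) and not past the test against classical monocytes (log2 ratio -0.73 ± 0.34, adjusted p = 0.155). Gata1 had 6 UMIs, and Gata3, Fos, Jun, Tfec and Zfpm1 had 0 in all members. Calls lost when any 1 library was left out are given with their adjusted p in that fit. Such a fit also holds fewer libraries, so a lost call need not rest on the library left out. With Smc3-cKO replicate 2 left out, Cebpd was at 0.117 against neutrophils, and Cebpa was at 0.557 and Meis1 was at 0.361 against classical monocytes, and Lmo4 was at 0.166, Meis1 was at 0.312, Runx1 was at 0.0817, Gata3 was at 0.193, Runx3 was at 0.0601 and Id2 was at 0.174 against NK cells. Without Smc3-WT replicate 1, Irf8 was at 0.157 against classical monocytes, and Gata3 was at 0.0568 against NK cells. Leaving out Smc3-WT replicate 2, Irf8 was at 0.203 against classical monocytes, and Lmo4 was at 0.0531, Gata3 was at 0.13, Runx3 was at 0.0699 and Ikzf1 was at 0.05 against NK cells. With DESeq2, Cebpa was at 0.0741 and Irf8 was at 0.143 against classical monocytes, and Runx3 was at 0.0635, Ikzf1 was at 0.0693 and Id2 was at 0.115 against NK cells in adjusted p.

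Of the IgE receptor chains, Fcer1a had 255 and 115 CPM in the Smc3-cKO libraries, against 156 and 86.9 CPM in the Smc3-WT libraries, in 12 members, and 0 UMIs in the compared classes. It was too low to be tested. Fcer1g had 649.8 and 1222 CPM in the Smc3-cKO libraries, against 391 and 1564 CPM in the Smc3-WT libraries, and its mean was 903 CPM in neutrophils, 1163 CPM in classical monocytes and 586 CPM in NK cells. It was not past the test against neutrophils (log2 ratio -0.25 ± 0.37, adjusted p = 0.692), not past the test against classical monocytes (log2 ratio -0.42 ± 0.24, adjusted p = 0.26) and not past the test against NK cells (log2 ratio 0.61 ± 0.26, adjusted p = 0.129), so no difference in this shared chain passed the test. The receptor and its signalling genes were also counted together. Against neutrophils, 12 of the 19 genes were tested, 2 higher and 2 lower (1 and 1 with DESeq2), with a median log2 ratio of -0.12. Against classical monocytes, 15 of the 19 genes were tested, 3 higher and 3 lower (0 and 2 with DESeq2), with a median log2 ratio of -0.13. Against NK cells, 15 of the 19 genes were tested, 3 higher and 1 lower (2 and 1 with DESeq2), with a median log2 ratio of 0.26. Against neutrophils those higher were Gab2 and Fyn, and those lower were Lyn and Plcg2. Against classical monocytes those higher were Lat2, Gab2 and Fyn, and those lower were Lyn, Plcg2 and Syk. Against NK cells those higher were Lat2, Gab2 and Btk, and the 1 lower was Fyn. Gab2, the adaptor that links the receptor to PI3 kinase, had 557 and 1660.4 CPM in the Smc3-cKO libraries, against 1459.5 and 955 CPM in the Smc3-WT libraries, and was higher than in neutrophils (log2 ratio 1.08 ± 0.36, adjusted p = 0.0218), higher than in classical monocytes (log2 ratio 0.97 ± 0.27, adjusted p = 0.0195) and higher than in NK cells (log2 ratio 3.21 ± 0.31, adjusted p = 1.1e-11). Lyn, the kinase that phosphorylates the receptor, had 534 and 715 CPM in the Smc3-cKO libraries, against 652 and 347 CPM in the Smc3-WT libraries, and was lower than in neutrophils (log2 ratio -1.44 ± 0.38, adjusted p = 0.0032), lower than in classical monocytes (log2 ratio -1.91 ± 0.28, adjusted p = 2.4e-04) and not past the test against NK cells (log2 ratio 0.59 ± 0.30, adjusted p = 0.23). Fyn, a kinase of the same family, had 255 and 553 CPM in the Smc3-cKO libraries, against 261 and 434 CPM in the Smc3-WT libraries, and was higher than in neutrophils (log2 ratio 3.21 ± 0.55, adjusted p = 1.8e-05), higher than in classical monocytes (log2 ratio 1.37 ± 0.41, adjusted p = 0.028) and lower than in NK cells (log2 ratio -1.65 ± 0.30, adjusted p = 3.1e-05). Btk had 302 and 346 CPM in the Smc3-cKO libraries, against 209 and 261 CPM in the Smc3-WT libraries, and was higher than in NK cells (log2 ratio 3.42 ± 0.60, adjusted p = 2.0e-05). Plcg2, a phospholipase downstream of these kinases, had 46.4 and 92.2 CPM in the Smc3-cKO libraries, against 156 and 130.3 CPM in the Smc3-WT libraries, and was lower than in neutrophils (log2 ratio -1.38 ± 0.53, adjusted p = 0.0443) and lower than in classical monocytes (log2 ratio -2.07 ± 0.39, adjusted p = 0.00159). Dropping 1 library from the fit took some of these calls past 0.05 in adjusted p. Without Smc3-cKO replicate 2, Gab2 was at 0.101 and Plcg2 was at 0.126 against neutrophils, and Lat2 was at 0.152, Gab2 was at 0.289 and Fyn was at 0.335 against classical monocytes, and Lat2 was at 0.309 against NK cells. Leaving out Smc3-WT replicate 1, Gab2 was at 0.0549 and Plcg2 was at 0.0943 against neutrophils, and Syk was at 0.115 against classical monocytes. With Smc3-WT replicate 2 left out, Gab2 was at 0.253 and Plcg2 was at 0.122 against neutrophils, and Lat2 was at 0.199, Fyn was at 0.135 and Syk was at 0.144 against classical monocytes, and Lat2 was at 0.272 against NK cells. With DESeq2, Gab2 was at 0.105 and Plcg2 was at 0.209 against neutrophils, and Lat2 was at 0.0637, Gab2 was at 0.129, Fyn was at 0.0994 and Syk was at 0.148 against classical monocytes, and Lat2 was at 0.0818 against NK cells in adjusted p.

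**Figure D4:**
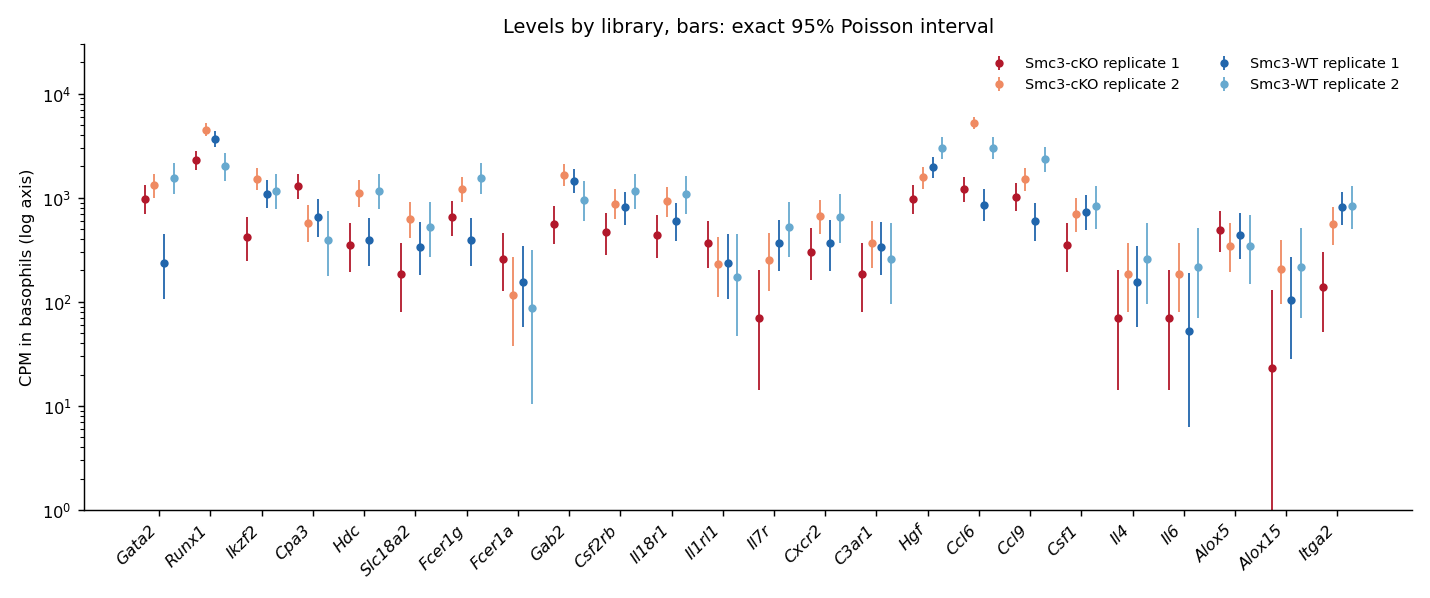
CPM of 24 genes in the basophils of each library on a log axis, Smc3-cKO libraries left of Smc3-WT libraries, with exact 95% Poisson intervals that cover counting error only. Runx1 lies at 1998 to 4520 CPM in all 4 libraries, while Gata2, Hdc and Ccl6 are lower in Smc3-WT replicate 1 than in replicate 2.

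Granule genes followed. Against neutrophils, 5 of the 11 genes were tested, 3 higher and 0 lower by edgeR (3 higher and 1 lower at unadjusted p under 0.05, 2 and 0 with DESeq2), with a median log2 ratio of 1.21. Against classical monocytes, 5 of the 11 genes were tested, 5 higher and 0 lower by edgeR (5 higher and 0 lower at unadjusted p under 0.05, 5 and 0 with DESeq2), with a median log2 ratio of 6.39. Against NK cells, 7 of the 11 genes were tested, 5 higher and 0 lower by edgeR (5 higher and 0 lower at unadjusted p under 0.05, 5 and 0 with DESeq2), with a median log2 ratio of 3.94. Granule genes near 0 in a compared class were tested only where high in basophils, so these counts and medians partly reflect the filter. Hdc, the enzyme that makes histamine, had 348 and 1107 CPM in the Smc3-cKO libraries, against 391 and 1173 CPM in the Smc3-WT libraries, in 39 members. Neutrophils carried it too, at 281 CPM, and it was higher than in neutrophils (log2 ratio 1.21 ± 0.41, adjusted p = 0.0223), higher than in classical monocytes (log2 ratio 6.89 ± 0.53, adjusted p = 1.1e-06) and higher than in NK cells (log2 ratio 8.33 ± 0.53, adjusted p = 2.1e-17). Srgn, the core protein of granule proteoglycans, had 1439 and 1937 CPM in the Smc3-cKO libraries, against 626 and 999 CPM in the Smc3-WT libraries, and was not past the test against neutrophils (log2 ratio 0.05 ± 0.37, adjusted p = 0.955), higher than in classical monocytes (log2 ratio 1.91 ± 0.30, adjusted p = 3.9e-04) and higher than in NK cells (log2 ratio 2.26 ± 0.30, adjusted p = 4.3e-08). Cd63, a granule membrane tetraspanin that reaches the surface on degranulation, had 394 and 853 CPM in the Smc3-cKO libraries, against 339 and 1259.5 CPM in the Smc3-WT libraries, and was higher than in neutrophils (log2 ratio 1.80 ± 0.42, adjusted p = 0.00103) and higher than in classical monocytes (log2 ratio 6.36 ± 0.67, adjusted p = 1.6e-05). Of 15 genes of the release machinery, 5 were tested against neutrophils, 1 higher and 1 lower (1 and 1 with DESeq2), with a median log2 ratio of -0.42. Against classical monocytes 6 were tested, 3 higher and 1 lower (3 and 1 with DESeq2, median 0.83). Against NK cells 9 were tested, 2 higher and 1 lower (2 and 0 with DESeq2, median 1.06). The 1 lower against NK cells was Stx11. Among them Stx3, a syntaxin, had 348 and 369 CPM in the Smc3-cKO libraries, against 261 and 304 CPM in the Smc3-WT libraries, and was higher than in neutrophils (log2 ratio 4.92 ± 0.86, adjusted p = 2.1e-05), higher than in classical monocytes (log2 ratio 2.48 ± 0.42, adjusted p = 8.5e-04) and higher than in NK cells (log2 ratio 5.26 ± 0.60, adjusted p = 1.1e-09). Lyst, which governs lysosome-related granule size, had 719 and 1799 CPM in the Smc3-cKO libraries, against 1381 and 1998 CPM in the Smc3-WT libraries, and was higher than in classical monocytes (log2 ratio 1.42 ± 0.23, adjusted p = 5.3e-04), higher than in NK cells (log2 ratio 2.17 ± 0.26, adjusted p = 3.6e-09) and not past the test against neutrophils (log2 ratio -0.36 ± 0.36, adjusted p = 0.518). Stx11 was at least 6.97-fold lower than in neutrophils (adjusted p = 1.6e-04) and at least 4.19-fold lower than in classical monocytes (adjusted p = 0.00608). Some of these calls were lost when 1 library was left out, given as the adjusted p. Leaving out Smc3-cKO replicate 2, Hdc was at 0.206 and Cd63 was at 0.0988 against neutrophils, and Stx11 was at 0.25 against NK cells. With Smc3-WT replicate 1 left out, Stx11 was at 0.1935 against NK cells. Without Smc3-WT replicate 2, Hdc was at 0.478 against neutrophils and Stx11 was at 0.198 against NK cells. With all 4 libraries, Stx11 was at 0.113 against NK cells. With DESeq2, Hdc was at 0.144 against neutrophils in adjusted p.

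The rule's proteases lie in clusters of related genes, and most of their neighbours were at 0 UMIs in the members. On chromosome 14 (GRCm38.p6), between Cma1 at 55941451 and Gzmb at 56262334, Mcpt8 (56082163 to 56085499) was detected in 21 members. Its neighbours Mcpt1, Mcpt2, Mcpt4, Mcpt9, Cma2, Gzmc, Gzmd, Gzme, Gzmf, Gzmg and Gzmn were at 0 UMIs. Ctsg, which codes for cathepsin G, had 17 UMIs in 3 members, 15 of them in the largest. Cma1 and Gzmb came from a single member. On chromosome 17, Prss34 (25298394 to 25300168) was detected, and Prss28, Prss29, Tpsab1, Tpsb2, Tpsg1, Prss27 and Prss32 were at 0 UMIs. In the Ms4a family on chromosome 19, Ms4a6b had 186 and 231 CPM in the Smc3-cKO libraries, against 261 and 391 CPM in the Smc3-WT libraries and Ms4a6c 69.6 and 277 CPM in the Smc3-cKO libraries, against 156 and 174 CPM in the Smc3-WT libraries. Ms4a6c was higher than in neutrophils (log2 ratio 3.04 ± 0.86, adjusted p = 0.00591) and lower than in classical monocytes (log2 ratio -2.27 ± 0.32, adjusted p = 1.9e-04). Near-identical copies within these families can share reads, and how the counting split them is not stated.

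Receptors for growth factors and alarmins were next. Against neutrophils, 9 of the 24 genes were tested, 5 higher and 2 lower (5 and 1 with DESeq2), with a median log2 ratio of 1.90. Against classical monocytes, 18 of the 24 genes were tested, 7 higher and 7 lower (7 and 5 with DESeq2), with a median log2 ratio of -0.56. Against NK cells, 17 of the 24 genes were tested, 5 higher and 1 lower (5 and 1 with DESeq2), with a median log2 ratio of 0.55. The shares over all genes tested against NK cells were 7.00% higher and 6.91% lower. Against classical monocytes those higher were Il1rl1, Il18r1, Il18rap, Il7r, Csf2rb2, Csf2rb and Il1rap, and those lower were Il6ra, Tgfbr1, Csf3r, Il10ra, Ifngr1, Csf2ra and Il13ra1. Against NK cells those higher were Il1rl1, Csf2rb2, Csf2rb, Il1rap and Ifngr2, and the 1 lower was Ifngr1. Csf2rb, the common beta chain of the IL-3, IL-5 and GM-CSF receptors, had 464 and 876 CPM in the Smc3-cKO libraries, against 808 and 1173 CPM in the Smc3-WT libraries, in 45 members. Csf2rb was higher than in neutrophils (log2 ratio 2.23 ± 0.39, adjusted p = 2.2e-05), higher than in classical monocytes (log2 ratio 2.62 ± 0.29, adjusted p = 2.3e-05) and higher than in NK cells (log2 ratio 7.86 ± 0.50, adjusted p = 1.9e-17). Csf2rb2, the mouse beta chain used with IL-3 alone, had 92.8 and 231 CPM in the Smc3-cKO libraries, against 104 and 304 CPM in the Smc3-WT libraries, and was higher than in classical monocytes (log2 ratio 3.24 ± 0.51, adjusted p = 4.7e-04). Of the alpha chains, Il3ra had 92.8 and 69.2 CPM in the Smc3-cKO libraries, against 26.1 and 43.4 CPM in the Smc3-WT libraries, with 9 UMIs in 8 members, Csf2ra had 2 UMIs and Il5ra 0. Il1rl1, the IL-33 receptor ST2, had 371 and 231 CPM in the Smc3-cKO libraries, against 235 and 174 CPM in the Smc3-WT libraries, in 22 members. It was higher than in neutrophils (40-fold, counting interval 12.1 to 208, adjusted p = 5.9e-04) and higher than in NK cells (214-fold, counting interval 52.8 to 1869.9, adjusted p = 7.3e-11). The IL-18 receptor genes lie beside Il1rl1 on chromosome 1 (40404864 to 40551707 for the 3 genes, GRCm38.p6). Il18r1 had 441 and 922 CPM in the Smc3-cKO libraries, against 599 and 1086 CPM in the Smc3-WT libraries, and was higher than in neutrophils (log2 ratio 3.92 ± 0.44, adjusted p = 8.7e-09), higher than in classical monocytes (log2 ratio 6.21 ± 0.62, adjusted p = 1.1e-05) and not past the test against NK cells (log2 ratio 0.11 ± 0.26, adjusted p = 0.862). Il18rap had 487 and 969 CPM in the Smc3-cKO libraries, against 1329 and 999 CPM in the Smc3-WT libraries, and was higher than in neutrophils (log2 ratio 1.90 ± 0.38, adjusted p = 1.3e-04), higher than in classical monocytes (log2 ratio 5.73 ± 0.39, adjusted p = 3.3e-07) and not past the test against NK cells (log2 ratio 0.54 ± 0.25, adjusted p = 0.169). For both chains the level in NK cells was close, at 745 and 757 CPM. Il7r, which pairs with other chains for IL-7 and TSLP, had 69.6 and 254 CPM in the Smc3-cKO libraries, against 365 and 521 CPM in the Smc3-WT libraries, and was higher than in neutrophils (log2 ratio 3.15 ± 0.59, adjusted p = 6.5e-05) and higher than in classical monocytes (log2 ratio 5.21 ± 0.76, adjusted p = 2.3e-04). Ifngr1, a chain of the interferon gamma receptor, had 69.6 and 69.2 CPM in the Smc3-cKO libraries, against 52.1 and 0 CPM in the Smc3-WT libraries, and was lower than in classical monocytes (log2 ratio -3.87 ± 0.50, adjusted p = 8.5e-05) and lower than in NK cells (log2 ratio -2.84 ± 0.56, adjusted p = 1.4e-04). Il4ra was at 0 UMIs. Adjusted p passed 0.05 for some of these calls with 1 library fewer. With Smc3-cKO replicate 2 left out, Il1rap was at 0.0665 and Tgfbr1 was at 0.155 against classical monocytes, and Il1rap was at 0.0864 and Ifngr2 was at 0.0592 against NK cells. Without Smc3-WT replicate 1, Tgfbr1 was at 0.17, Il10ra was at 0.0927, Csf2ra was at 0.0526 and Il13ra1 was at 0.0776 against classical monocytes, and Il1rap was at 0.065 against NK cells. Leaving out Smc3-WT replicate 2, Tgfbr1 was at 0.0703 against classical monocytes, and Ifngr2 was at 0.0776 against NK cells. With DESeq2, Tgfbr1 was at 0.178 and Il10ra was at 0.0576 against classical monocytes in adjusted p. Leaving out the 7 members that stand apart, Tgfbr1 was at 0.0633 against classical monocytes in adjusted p.

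Receptors for chemoattractants and lipid mediators included some carried by neutrophils and some that were not. Against neutrophils, 7 of the 15 genes were tested, 3 higher and 0 lower by edgeR (3 higher and 2 lower at unadjusted p under 0.05, 3 and 0 with DESeq2), with a median log2 ratio of -0.41. Against classical monocytes, 7 of the 15 genes were tested, 6 higher and 0 lower by edgeR (6 higher and 0 lower at unadjusted p under 0.05, 6 and 0 with DESeq2), with a median log2 ratio of 5.07. Against NK cells, 11 of the 15 genes were tested, 6 higher and 0 lower by edgeR (6 higher and 1 lower at unadjusted p under 0.05, 6 and 0 with DESeq2), with a median log2 ratio of 3.36. Where a compared class was near 0, the filter kept only receptors high in basophils, which bears on these counts and medians. Against NK cells those higher were Cxcr2, P2ry14, Ptger3, C3ar1, C5ar1 and Ccr1. Cxcr2, a receptor for neutrophil-attracting chemokines, had 302 and 669 CPM in the Smc3-cKO libraries, against 365 and 651 CPM in the Smc3-WT libraries, in 34 members, and was higher than in classical monocytes (log2 ratio 5.59 ± 0.47, adjusted p = 2.6e-06), higher than in NK cells (log2 ratio 6.41 ± 0.53, adjusted p = 1.6e-13) and not past the test against neutrophils (log2 ratio -0.41 ± 0.43, adjusted p = 0.552). C3ar1, the receptor for complement C3a, had 186 and 369 CPM in the Smc3-cKO libraries, against 339 and 261 CPM in the Smc3-WT libraries, and was at least 60.8-fold higher than in neutrophils (adjusted p = 1.2e-06) and higher than in classical monocytes (log2 ratio 5.65 ± 0.77, adjusted p = 1.4e-04). P2ry14, a receptor for UDP-glucose, had 92.8 and 184 CPM in the Smc3-cKO libraries, against 235 and 174 CPM in the Smc3-WT libraries, and was higher than in NK cells (log2 ratio 3.36 ± 0.59, adjusted p = 2.2e-05). Ptger3, a prostaglandin E2 receptor, had 92.8 and 231 CPM in the Smc3-cKO libraries, against 104 and 217 CPM in the Smc3-WT libraries, and was higher than in classical monocytes (102-fold, counting interval 30.1 to 539.8, adjusted p = 1.3e-04). Ccr2, which was not tested against classical monocytes because it chose them, had 186 and 346 CPM in the Smc3-cKO libraries, against 339 and 478 CPM in the Smc3-WT libraries, and was higher than in neutrophils (log2 ratio 2.64 ± 0.59, adjusted p = 5.7e-04) and not past the test against NK cells (log2 ratio -0.25 ± 0.32, adjusted p = 0.728). Hrh4, a histamine receptor, had 8 UMIs in 7 members and 0 in the compared classes, and Ptgdr2 had 0 UMIs in all members. Calls lost when any 1 library was left out are given with their adjusted p in that fit, which also holds fewer libraries. Without Smc3-cKO replicate 2, Ccr2 was at 0.0576 against neutrophils.

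Surface regulators were mixed. Against neutrophils, 11 of the 21 genes were tested, 4 higher and 3 lower (3 and 2 with DESeq2), with a median log2 ratio of 0.46. Against classical monocytes, 13 of the 21 genes were tested, 4 higher and 3 lower (4 and 2 with DESeq2), with a median log2 ratio of -0.39. Against NK cells, 14 of the 21 genes were tested, 7 higher and 1 lower (6 and 0 with DESeq2), with a median log2 ratio of 1.07. Of all genes tested against NK cells, 7.00% were higher and 6.91% lower. Against neutrophils those higher were Cd244a, Cd63, Ly6e and Cd200r1, and those lower were Clec12a, Pirb and Cd300lf. Against classical monocytes those higher were Cd9, Lilrb4a, Cd63 and Cd200r1, and those lower were Cd48, Clec12a and Cd300a. Against NK cells those higher were Fcgr3, Cd9, Lilrb4a, Cd63, Cd300a, Ly6e and Cd200r1, and the 1 lower was Cd48. Cd200r1, the inhibitory member of the CD200 receptor family, had 139 and 599.6 CPM in the Smc3-cKO libraries, against 365 and 347 CPM in the Smc3-WT libraries, and was higher than in neutrophils (log2 ratio 2.44 ± 0.50, adjusted p = 2.0e-04), higher than in classical monocytes (log2 ratio 2.55 ± 0.39, adjusted p = 3.8e-04) and higher than in NK cells (log2 ratio 4.29 ± 0.49, adjusted p = 1.1e-09). Lilrb4a, an inhibitory receptor, had 255 and 392 CPM in the Smc3-cKO libraries, against 599 and 391 CPM in the Smc3-WT libraries, and was higher than in NK cells (log2 ratio 4.83 ± 0.49, adjusted p = 6.2e-11) and higher than in classical monocytes (log2 ratio 1.30 ± 0.33, adjusted p = 0.0106). Cd9, a tetraspanin, had 418 and 899 CPM in the Smc3-cKO libraries, against 287 and 869 CPM in the Smc3-WT libraries, and was higher than in classical monocytes (log2 ratio 4.03 ± 0.46, adjusted p = 3.2e-05), higher than in NK cells (log2 ratio 2.17 ± 0.35, adjusted p = 5.0e-06) and not past the test against neutrophils (log2 ratio 0.67 ± 0.39, adjusted p = 0.215). Ifitm1, an interferon-inducible membrane protein gene among the basophil markers, had 1068 and 1476 CPM in the Smc3-cKO libraries, against 365 and 2345 CPM in the Smc3-WT libraries, and was higher than in neutrophils (log2 ratio 2.77 ± 0.43, adjusted p = 4.6e-06) and higher than in classical monocytes (log2 ratio 8.05 ± 0.44, adjusted p = 8.8e-08). Adhesion genes were counted in the same way. Against neutrophils, 12 of the 18 genes were tested, 3 higher and 5 lower (3 and 4 with DESeq2), with a median log2 ratio of -0.98. Against classical monocytes, 14 of the 18 genes were tested, 3 higher and 6 lower (3 and 4 with DESeq2), with a median log2 ratio of -0.55. Against NK cells, 16 of the 18 genes were tested, 2 higher and 2 lower (1 and 1 with DESeq2), with a median log2 ratio of -0.27. Against neutrophils those higher were Itgb1, Itga2 and Itgb7, and those lower were Cd44, Itgal, Itgam, Cd24a and Alcam. Against classical monocytes those higher were Itga2b, Itgb3 and Itga2, and those lower were Itga4, Cd44, Itgal, Itgam, Itgb2 and Alcam. Against NK cells those higher were Itga2b and Itgb7, and those lower were Itga4 and Itgal. Adjusted p for Itgb7 there was 0.3275 without Smc3-cKO replicate 2, 0.0581 without Smc3-WT replicate 1 and 0.163 without Smc3-WT replicate 2. It was 0.16 with DESeq2 and 0.0986 with all 4 libraries. Itgal there was at 0.0756 without Smc3-WT replicate 2 and 0.0842 with DESeq2. Itga2, which codes for the integrin CD49b used to sort both basophils and NK cells, had 139 and 553 CPM in the Smc3-cKO libraries, against 808 and 825 CPM in the Smc3-WT libraries. Itga2 was higher than in neutrophils (386-fold, counting interval 67.2 to 15447, adjusted p = 3.6e-10), higher than in classical monocytes (log2 ratio 6.01 ± 0.61, adjusted p = 1.1e-05) and not past the test against NK cells (log2 ratio 0.01 ± 0.27, adjusted p = 0.987). Itga2b, better known from platelets, had 278 and 184 CPM in the Smc3-cKO libraries, against 261 and 86.9 CPM in the Smc3-WT libraries, in 20 members, and was higher than in NK cells (log2 ratio 6.27 ± 0.71, adjusted p = 1.2e-09). The platelet genes Ppbp, Gp9 and Treml1 were at 0 UMIs. Itga4 had 116 and 438 CPM in the Smc3-cKO libraries, against 339 and 130.3 CPM in the Smc3-WT libraries, and was lower than in classical monocytes (log2 ratio -2.28 ± 0.34, adjusted p = 3.2e-04) and lower than in NK cells (log2 ratio -2.48 ± 0.31, adjusted p = 1.6e-08). Cd44 was lower than in neutrophils (log2 ratio -2.45 ± 0.42, adjusted p = 1.9e-05) and lower than in classical monocytes (log2 ratio -1.99 ± 0.32, adjusted p = 4.9e-04). Dropping 1 library from the fit took some of these calls past 0.05 in adjusted p. Leaving out Smc3-cKO replicate 2, Cd244a was at 0.152, Cd63 was at 0.0988 and Itgal was at 0.105 against neutrophils, and Lilrb4a was at 0.0708 and Itgb2 was at 0.158 against classical monocytes, and Ly6e was at 0.154 against NK cells. With Smc3-WT replicate 1 left out, Pirb was at 0.0782 and Itgal was at 0.169 against neutrophils, and Lilrb4a was at 0.0605, Cd48 was at 0.13, Itgam was at 0.151 and Itgb2 was at 0.154 against classical monocytes, and Cd48 was at 0.136 against NK cells. Without Smc3-WT replicate 2, Cd244a was at 0.453, Pirb was at 0.0908 and Itgal was at 0.097 against neutrophils, and Cd48 was at 0.164, Itgam was at 0.0581 and Itgb2 was at 0.0886 against classical monocytes, and Fcgr3 was at 0.262, Ly6e was at 0.232 and Cd48 was at 0.289 against NK cells. With DESeq2, Cd244a was at 0.141, Pirb was at 0.0887 and Itgal was at 0.221 against neutrophils, and Cd48 was at 0.11, Itgam was at 0.115 and Itgb2 was at 0.204 against classical monocytes, and Ly6e was at 0.211 and Cd48 was at 0.178 against NK cells in adjusted p. Leaving out the 7 members that stand apart, Itgal was at 0.0844 against neutrophils, and Itgam was at 0.0593 and Itgb2 was at 0.0834 against classical monocytes in adjusted p. With all 4 libraries, Clec12a was at 0.253 and Itgam was at 0.0963 against classical monocytes in adjusted p.

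**Figure D5:**
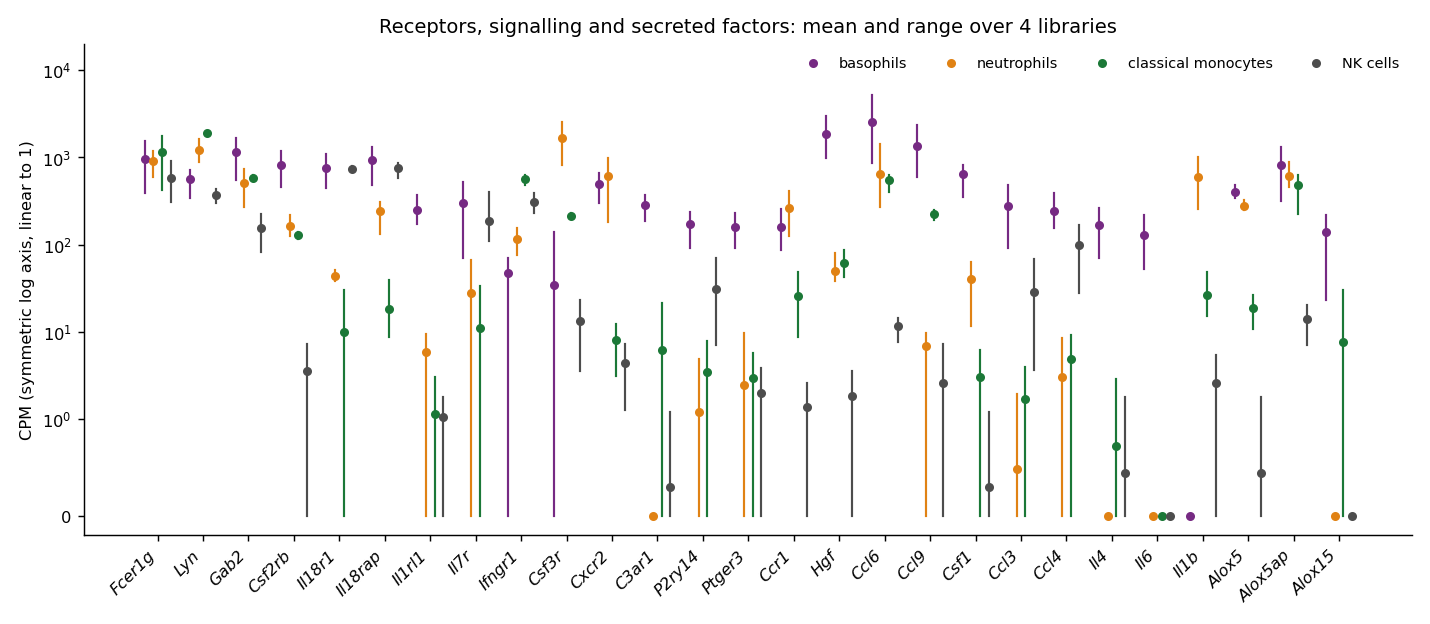
Mean CPM (points) and range over the 4 libraries (lines) for 27 receptor, signalling, secreted-factor and lipid-enzyme genes in basophils, neutrophils, classical monocytes and NK cells, on a symmetric log axis. Hgf, Csf1, C3ar1, Il4 and Il6 stand above the compared classes, while Il18r1 and Il18rap are at similar levels in NK cells.

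Secreted factors were led by growth factors and CC chemokines. Against neutrophils, 7 of the 23 genes were tested, 6 higher and 1 lower (6 and 1 with DESeq2), with a median log2 ratio of 4.97. Against classical monocytes, 8 of the 23 genes were tested, 7 higher and 0 lower by edgeR (7 higher and 0 lower at unadjusted p under 0.05, 7 and 0 with DESeq2), with a median log2 ratio of 5.10. Against NK cells, 9 of the 23 genes were tested, 7 higher and 0 lower by edgeR (9 higher and 0 lower at unadjusted p under 0.05, 7 and 0 with DESeq2), with a median log2 ratio of 7.68 (7.48 with genes at 0 UMIs at their bound). Factors near 0 in a compared class were tested only where high in basophils, so these counts and medians partly reflect the filter too. Hgf, hepatocyte growth factor, had 975 and 1568 CPM in the Smc3-cKO libraries, against 1981 and 2997 CPM in the Smc3-WT libraries, in 49 of 54 members. It was higher than in neutrophils (log2 ratio 4.97 ± 0.45, adjusted p = 6.2e-11), higher than in classical monocytes (log2 ratio 4.73 ± 0.29, adjusted p = 1.4e-07) and higher than in NK cells (log2 ratio 9.69 ± 0.42, adjusted p = 4.9e-23). Csf1, the macrophage growth factor, had 348 and 692 CPM in the Smc3-cKO libraries, against 729.8 and 825 CPM in the Smc3-WT libraries, in 39 members, and was higher than in neutrophils (log2 ratio 3.66 ± 0.46, adjusted p = 7.8e-08) and higher than in classical monocytes (log2 ratio 7.85 ± 0.53, adjusted p = 3.3e-07). Ccl6 had 1207 and 5189 CPM in the Smc3-cKO libraries, against 860.1 and 2997 CPM in the Smc3-WT libraries, and was higher than in neutrophils (log2 ratio 1.64 ± 0.41, adjusted p = 0.0022), higher than in classical monocytes (log2 ratio 2.02 ± 0.32, adjusted p = 4.2e-04) and higher than in NK cells (log2 ratio 7.48 ± 0.35, adjusted p = 6.8e-22). Ccl9 had 1021 and 1499 CPM in the Smc3-cKO libraries, against 599 and 2345 CPM in the Smc3-WT libraries, and was higher than in neutrophils (log2 ratio 7.01 ± 0.58, adjusted p = 1.1e-11), higher than in classical monocytes (log2 ratio 2.40 ± 0.32, adjusted p = 1.2e-04) and higher than in NK cells (log2 ratio 8.27 ± 0.48, adjusted p = 8.1e-19). Ccl3 had 92.8 and 438 CPM in the Smc3-cKO libraries, against 104 and 478 CPM in the Smc3-WT libraries, and was higher than in classical monocytes (log2 ratio 6.63 ± 0.60, adjusted p = 4.5e-06) and higher than in NK cells (log2 ratio 3.46 ± 0.54, adjusted p = 2.2e-06). Ccl4 had 209 and 208 CPM in the Smc3-cKO libraries, against 156 and 391 CPM in the Smc3-WT libraries, and was higher than in neutrophils (62.6-fold, counting interval 15.5 to 546, adjusted p = 2.3e-04) and not past the test against NK cells (log2 ratio 1.14 ± 0.48, adjusted p = 0.112). In both Ccl6 and Ccl3, Smc3-WT replicate 1 was below Smc3-WT replicate 2 and Smc3-cKO replicate 1 below Smc3-cKO replicate 2. Some of these calls were lost when 1 library was left out, given as the adjusted p. With Smc3-cKO replicate 2 left out, Ccl6 was at 0.119 against neutrophils. Leaving out Smc3-WT replicate 2, Ccl6 was at 0.28 against neutrophils.

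Il4, the type 2 cytokine basophils are best known for, had 69.6 and 184 CPM in the Smc3-cKO libraries, against 156 and 261 CPM in the Smc3-WT libraries, in 19 members (35.2%, exact 95% interval 22.7 to 49.4%) with at most 2 UMIs in each. Among the compared classes, 0 of 270 neutrophils, 1 of 649 classical monocytes and 1 of 849 NK cells had an Il4 UMI, at median depths of 2250.5 UMIs in basophils, 2582 in neutrophils, 4340 in classical monocytes and 2848 in NK cells. Thinned to 1000 UMIs per cell, 17.3% of the 52 basophils deep enough carried one, against 0 of 262 neutrophils, 1 of 637 classical monocytes and 0 of 833 NK cells. Il4 was at least 34.8-fold higher than in neutrophils (adjusted p = 5.4e-04) and higher than in classical monocytes (323-fold, counting interval 51.7 to 13390.0, adjusted p = 2.9e-05). Il6 had 69.6 and 184 CPM in the Smc3-cKO libraries, against 52.1 and 217 CPM in the Smc3-WT libraries, in 13 members, and was at least 92.9-fold higher than in NK cells (adjusted p = 9.6e-10). Il13, Tnf, Csf2, Areg and Il1b were at 0 UMIs in every member, and 0 of 54 members allows a share of up to 5.56% with an Il13 UMI. Il1b was at least 27.2-fold lower than in neutrophils (adjusted p = 2.2e-08).

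Genes of lipid mediators were fewer. Against neutrophils, 5 of the 14 genes were tested, 1 higher and 1 lower (1 and 1 with DESeq2), with a median log2 ratio of 0.18. Against classical monocytes, 8 of the 14 genes were tested, 3 higher and 1 lower (3 and 0 with DESeq2), with a median log2 ratio of 0.74. Against NK cells, 8 of the 14 genes were tested, 5 higher and 0 lower by edgeR (6 higher and 0 lower at unadjusted p under 0.05, 5 and 0 with DESeq2), with a median log2 ratio of 5.07. Alox5, the 5-lipoxygenase that opens leukotriene synthesis, had 487 and 346 CPM in the Smc3-cKO libraries, against 443 and 347 CPM in the Smc3-WT libraries, and was not past the test against neutrophils (log2 ratio 0.18 ± 0.40, adjusted p = 0.809) and higher than in classical monocytes (log2 ratio 3.82 ± 0.45, adjusted p = 4.3e-05). Alox5ap, its activating protein, had 743 and 899 CPM in the Smc3-cKO libraries, against 313 and 1303 CPM in the Smc3-WT libraries, and was higher than in NK cells (log2 ratio 5.76 ± 0.47, adjusted p = 9.7e-14) and not past the test against classical monocytes (log2 ratio 0.62 ± 0.26, adjusted p = 0.119). Alox15 had 23.2 and 208 CPM in the Smc3-cKO libraries, against 104 and 217 CPM in the Smc3-WT libraries, in 14 members, and was at least 111-fold higher than in NK cells (adjusted p = 1.8e-10) and higher than in classical monocytes (log2 ratio 4.45 ± 1.02, adjusted p = 0.00653). Lta4h, which makes leukotriene B4, was lower than in neutrophils (log2 ratio -2.39 ± 0.54, adjusted p = 6.2e-04). Ltc4s, which makes leukotriene C4, was at 0 UMIs in all members, and so was Ptgs2.

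Genes of antigen presentation by MHC class II were uneven. Cd74, the invariant chain, had 23.2 and 1291 CPM in the Smc3-cKO libraries, against 495 and 43.4 CPM in the Smc3-WT libraries, and 56 of its 77 UMIs came from 1 Smc3-cKO replicate 2 member. Without the 7 members that stand apart it was at 0 and 0 CPM in the Smc3-cKO libraries, against 514 and 43.4 CPM in the Smc3-WT libraries. Against classical monocytes, 7 of the 10 genes were tested, 0 higher and 5 lower by edgeR (0 higher and 6 lower at unadjusted p under 0.05, 0 and 3 with DESeq2), with a median log2 ratio of -1.79. Against NK cells, 5 of the 10 genes were tested, 1 higher and 0 lower by edgeR (2 higher and 0 lower at unadjusted p under 0.05, 0 and 0 with DESeq2), with a median log2 ratio of 0.83. Cd74 was lower than in classical monocytes (log2 ratio -1.79 ± 0.46, adjusted p = 0.0119). H2-Aa, a class II alpha chain, had 23.2 and 553 CPM in the Smc3-cKO libraries, against 495 and 86.9 CPM in the Smc3-WT libraries, and was lower than in classical monocytes (log2 ratio -1.06 ± 0.33, adjusted p = 0.0345) and higher than in NK cells (log2 ratio 1.32 ± 0.40, adjusted p = 0.0169, 2 of 3 libraries). Of 13 survival genes, 2 were tested against neutrophils, 5 against classical monocytes and 8 against NK cells. In each comparison 1 was higher and 1 lower by edgeR, with median log2 ratios of -0.23, -0.26 and -0.37. Among them Pim1, a kinase induced by STAT5, had 116 and 669 CPM in the Smc3-cKO libraries, against 391 and 304 CPM in the Smc3-WT libraries, and was higher than in neutrophils (log2 ratio 1.55 ± 0.47, adjusted p = 0.0109), higher than in classical monocytes (log2 ratio 2.30 ± 0.39, adjusted p = 7.5e-04) and higher than in NK cells (log2 ratio 1.31 ± 0.36, adjusted p = 0.00699). Bcl2 had 325 and 23.1 CPM in the Smc3-cKO libraries, against 261 and 86.9 CPM in the Smc3-WT libraries, and was lower than in NK cells (log2 ratio -3.20 ± 0.41, adjusted p = 2.5e-08), and Mcl1 had 186 and 208 CPM in the Smc3-cKO libraries, against 78.2 and 217 CPM in the Smc3-WT libraries, and was lower than in neutrophils (log2 ratio -2.01 ± 0.47, adjusted p = 9.2e-04) and lower than in classical monocytes (log2 ratio -1.43 ± 0.37, adjusted p = 0.0132). Of 18 immediate early genes, 6 were at 0 UMIs in all members, and 0 of 1 tested against neutrophils, 0 of 6 against classical monocytes and 0 of 7 against NK cells passed the edgeR test. At unadjusted p under 0.05 there were 0 against neutrophils, 1 higher and 1 lower against classical monocytes and 1 higher against NK cells, and DESeq2 called 0 in each. Cell cycle genes summed to 86 and 3 UMIs in the members of the Smc3-cKO libraries, against 17 and 2 UMIs in those of the Smc3-WT libraries, and 4 members held 3 or more. Adjusted p passed 0.05 for some of these calls with 1 library fewer. Without Smc3-cKO replicate 2, H2-Aa was at 0.0503 and Mcl1 was at 0.058 against classical monocytes, and H2-Aa was at 0.62 and Pim1 was at 0.391 against NK cells, and Pim1 was at 0.0577 and Mcl1 was at 0.0525 against neutrophils. Leaving out Smc3-WT replicate 1, Cd74 was at 0.132, H2-Aa was at 0.105 and Mcl1 was at 0.0516 against classical monocytes, and H2-Aa was at 0.0976 against NK cells, and Pim1 was at 0.0634 against neutrophils. With Smc3-WT replicate 2 left out, H2-Aa was at 0.134 and Mcl1 was at 0.0581 against classical monocytes, and Pim1 was at 0.133 against neutrophils. With DESeq2, H2-Aa was at 0.16 and Mcl1 was at 0.102 against classical monocytes, and H2-Aa was at 0.359 and Pim1 was at 0.171 against NK cells, and Pim1 was at 0.0728 against neutrophils in adjusted p. Leaving out the 7 members that stand apart, H2-Aa was at 0.869 against NK cells in adjusted p. With all 4 libraries, H2-Aa was at 0.145 and Pim1 was at 0.119 against NK cells in adjusted p.

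Genotype is given as levels only. With 2 libraries against 2, an exact two-sided permutation test cannot go below p = 0.333, and none was run. Basophils made up 0.105% of kept cells (exact 95% interval 0.0479 to 0.199%) and 0.121% (0.0707 to 0.194%) in the Smc3-cKO libraries, against 0.109% (0.0633 to 0.174%) and 0.0772% (0.0385 to 0.138%) in the Smc3-WT libraries. The intervals cover counting error only, and they overlap for all 4 libraries. Median depth of the members was 2267 and 2173 UMIs in the Smc3-cKO libraries, against 2249 and 2289 UMIs in the Smc3-WT libraries. Smc3 itself had 46.4 and 92.2 CPM in the Smc3-cKO libraries, against 209 and 0 CPM in the Smc3-WT libraries, with 14 UMIs in all, so the targeted gene could not be read as lost or kept in these cells. A 3' tag may also lie outside a deleted part, and the deleted part is not given in the sources used here. Of 12 cohesin genes, 12 were detected. Against neutrophils, 7 of the 12 genes were tested, 0 higher and 0 lower by edgeR (0 higher and 0 lower at unadjusted p under 0.05, 0 and 0 with DESeq2), with a median log2 ratio of -0.09. Against classical monocytes, 12 of the 12 genes were tested, 0 higher and 0 lower by edgeR (0 higher and 1 lower at unadjusted p under 0.05, 0 and 0 with DESeq2), with a median log2 ratio of -0.06. Against NK cells, 12 of the 12 genes were tested, 0 higher and 1 lower by edgeR (0 higher and 3 lower at unadjusted p under 0.05, 0 and 0 with DESeq2), with a median log2 ratio of -0.33. Of all genes tested against NK cells 6.91% were lower, so 1 of 12 is not read as a trait of the cohesin genes. The gene lower against NK cells was Stag1, of a cohesin subunit. It had 557 and 392 CPM in the Smc3-cKO libraries, against 652 and 304 CPM in the Smc3-WT libraries, and was lower than in NK cells (log2 ratio -0.96 ± 0.30, adjusted p = 0.0194). The Stag1 call was lost in some fits with 1 library left out, which also hold fewer libraries. Leaving out Smc3-cKO replicate 2, Stag1 was at 0.15 against NK cells. Without Smc3-WT replicate 2, Stag1 was at 0.241 against NK cells. With DESeq2, Stag1 was at 0.262 against NK cells in adjusted p, and with all 4 libraries in edgeR at 0.0626.

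Some of these levels rested on particular members. Mcpt8 without the 7 members that stand apart was at 185 and 354 CPM in the Smc3-cKO libraries, against 756 and 478 CPM in the Smc3-WT libraries, and Prss34 at 0 and 96.5 CPM in the Smc3-cKO libraries, against 1209.9 and 0 CPM in the Smc3-WT libraries. The largest Smc3-cKO replicate 1 member had set the high values of both. Cd200r3 without them was at 3153 and 2734 CPM in the Smc3-cKO libraries, against 2178 and 3561 CPM in the Smc3-WT libraries, Hgf at 2968 and 2155 CPM in the Smc3-cKO libraries, against 2299 and 2997 CPM in the Smc3-WT libraries, and Csf1 at 927 and 965 CPM in the Smc3-cKO libraries, against 847 and 825 CPM in the Smc3-WT libraries. With all members these 3 genes were lower in both Smc3-cKO libraries than in both Smc3-WT libraries. Without the 7, the groups overlapped for Cd200r3 and Hgf, and Csf1 was higher in both Smc3-cKO libraries. Il18rap without the 7 members was at 1298 and 1351 CPM in the Smc3-cKO libraries, against 1512 and 999 CPM in the Smc3-WT libraries, and Srgn at 649 and 2059 CPM in the Smc3-cKO libraries, against 696 and 999 CPM in the Smc3-WT libraries, so their groups, apart before, overlapped too. Gata2 without them was at 835 and 1608 CPM in the Smc3-cKO libraries, against 272 and 1564 CPM in the Smc3-WT libraries, and Itga2 at 556 and 772 CPM in the Smc3-cKO libraries, against 938 and 825 CPM in the Smc3-WT libraries. Itga2 thus stayed lower in both Smc3-cKO libraries. Il7r did so too, at 278 and 354 CPM (Smc3-cKO) against 393 and 521 CPM (Smc3-WT). Spi1 was at 92.7 and 289 CPM (Smc3-cKO) against 302 and 391 CPM (Smc3-WT), from 29 UMIs in all. Its 92.7 CPM is 1 UMI, and 289 and 302 CPM lie close, so counting error alone could change this order. Il3ra lay the other way, at 185 and 96.5 CPM (Smc3-cKO) against 30.2 and 43.4 CPM (Smc3-WT), from 7 UMIs. The share of all genes with the genotypes apart was not counted, so these are levels of single genes only. For Gata2, Smc3-WT replicate 1 remained below the other 3 libraries, and this library also carried the most B cell and erythroid RNA in its members. The part of that RNA in its lower marker levels was not tested.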

How the data were processed

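Gene UMI counts per barcode were deposited by the authors for 4 libraries, made with Cell Ranger 7.0.0 per the file headers. The submitters' processing notes name mm10, deepTools and Juicer without roles, and the other 26 of the 30 samples of the series were not analysed here. The libraries held 40367056 to 51299056 UMIs in 9074 to 16096 barcodes, and 36 to 61 barcodes were shared by a pair of libraries. Kept cells and basophils followed the rule in the opening. Neutrophils, classical monocytes and NK cells were gated on their own markers, and the genes of any gate were left out of the tests it bears on. Within each library the counts of a class were added up where it held at least 10 cells. Sums were compared with edgeR 4.0.16 (limma 3.58.1, R 4.3.3) by filterByExpr, TMM scaling and the quasi-likelihood F test with the library as a block, since both classes of a pair come from the same library, and Benjamini-Hochberg adjustment at 0.05. DESeq2 1.42.0 was an alternative, and of these steps only the edgeR fit was tested on simulated data.

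CPM scales a gene's UMIs to the summed UMIs of a library's members (counts per 1e6), intervals are exact 95% and cover counting error only, and a level of 0 allows 3 UMIs. Scrublet (scanpy 1.11.5, Python 3.11.15) called 3.52% and 6.09% of barcodes in the Smc3-cKO libraries, against 0% and 5.62% in the Smc3-WT libraries, so it did not work in Smc3-WT replicate 1. It called 0 members, and no barcode was removed on it. Named genes were the 15 highest and 8 lowest by log2 ratio past the test in all 3 comparisons, the 20 highest levels, and members of fixed lists. A gene of the lists is not reported here and was left out of its list. Members and lists were chosen with earlier results of these data known. P-values measure how the difference between classes varied over libraries, with the library as a block, and this variation may be technical.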

Additional observations from a re-analysis of the deposited data

How the results depend on the processing

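Counts of genes past the test, out of 460 against neutrophils, 807 against classical monocytes and 747 against NK cells, moved with the filter, the tool and the libraries used. With DESeq2 they were 302, 504 and 416. With no filter on low counts they were 804, 1096 and 792. With a marker sum of at least 5, which left 2 libraries, the counts were 503 against classical monocytes and 343 against NK cells. Leaving out 1 library gave 349 to 533 genes against neutrophils, 522 to 601 against classical monocytes and 301 to 585 against NK cells. The count against classical monocytes was 522 without Smc3-cKO replicate 2, and that against NK cells was 413 without it and 301 without Smc3-WT replicate 2. The cause was not tested. With no replicate block the counts were 431, 725 and 715. Genotype was not tested, so the replicate numbers were not used to pair Smc3-cKO with Smc3-WT libraries. Leaving out the members that stand apart gave 483, 931 and 874, and using all 4 libraries 432, 835 and 829, both chosen after seeing the data. Among all genes past the main test, 5 against classical monocytes changed direction with all 4 libraries. Against NK cells, 1 did so without Smc3-cKO replicate 2. Of 323 tests of named genes, 299 to 323 could be run under each of 12 alternatives, and no call of a named gene changed direction in those run. Calls of named genes were lost, 47 with a marker sum of at least 5, 47 without Smc3-cKO replicate 2, 43 without Smc3-WT replicate 2, 40 with DESeq2, 30 without Smc3-WT replicate 1, 19 with no replicate block, 15 with no filter, 14 with all 4 libraries, 5 without the members that stand apart and at most 2 under each of the other 3. Of 123 gene levels, 20 moved by more than the spread between libraries without those members. The summed level of the other basophil markers, 6578 ± 2212 CPM (SD, n = 4), was 5774 to 7459 CPM with 1 library left out. Shares of basophils per library stayed within their intervals under all alternatives run. Member UMIs per library, 23025 to 43364, limit what could be detected.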
